A study of Mus musculus with 6 samples.

Results

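The 10 genes described here encode the parts of MHC class II antigen presentation and B7 costimulation that a macrophage shows to CD4 T cells: the class II chains H2-Aa, H2-Ab1 and H2-Eb1, the peptide editor H2-DMa and H2-DMb1, the invariant chain Cd74, the thiol reductase Ifi30, the class II transactivator Ciita, and the costimulatory ligands Cd80 and Cd86. They were chosen by gene symbol, and all 10 were found among the 45193 Ensembl genes of the count table and passed the filter on low counts. Messenger RNA was sequenced in bone marrow-derived macrophages of 2 genotypes on the C57BL/6J background, with 3 libraries each. The RXRKO group had floxed Rxra alleles (RXRafl/fl) with LysMCre and was RXRb-/-, and the WT group was wild type. LysMCre is Cre recombinase placed in the lysozyme 2 gene, so that Rxra is deleted in myeloid cells, while the RXRb-/- alleles are carried by every cell of the animal. Both groups were grown for 6 days with L929-conditioned medium, a source of CSF-1, and were kept in serum-free medium with the solvent DMSO for 3 hours, so neither group had been given interferon or a receptor ligand. The labels call the replicates biological without naming animals, and p-values therefore measure the spread between these libraries. In RNA from whole cultures, fewer cells that express a gene and less RNA per cell cannot be told apart.

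MHC class II molecules are pairs of an alpha and a beta chain that carry peptides from endosomes to the cell surface. The invariant chain fills the groove of a new class II pair, cathepsins trim it to a fragment called CLIP, and H2-DM exchanges CLIP for an antigen peptide. Transcription of these genes depends on CIITA, a coactivator that is recruited to the X and Y boxes of class II promoters by the RFX complex, CREB and NF-Y. Macrophages at rest express few class II molecules, and interferon gamma raises them through IRF1 and CIITA. RXR alpha and beta are nuclear receptors that pair with other nuclear receptors and, as such pairs, bind DNA near their target genes.

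In RXRKO macrophages, transcripts of the class II chains H2-Ab1 and H2-Eb1 and editor subunit H2-DMb1 fell to 0.607 to 0.726 times the WT level. The costimulatory ligand Cd86 rose to 1.57 times the WT level, on 44 to 70 reads a library in WT. These falls passed in all 16 alternative analyses, and the rise of Cd86 passed in 10 of 16. The other 6 genes, Ciita and Cd74 among them, did not pass the test. The test was edgeR's quasi-likelihood F test with Benjamini-Hochberg adjustment over 12011 genes and a threshold of 0.05. Of all genes tested, 19.4% passed, 9.77% higher and 9.61% lower in RXRKO, and the 10 genes gave 1 that rose and 3 that fell. Their median log2 fold change was -0.19, beside -0.005 over all genes tested. The 2 groups did not overlap in 5 of the 10 genes, against 36.9% of all genes tested.

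**Figure D1:**
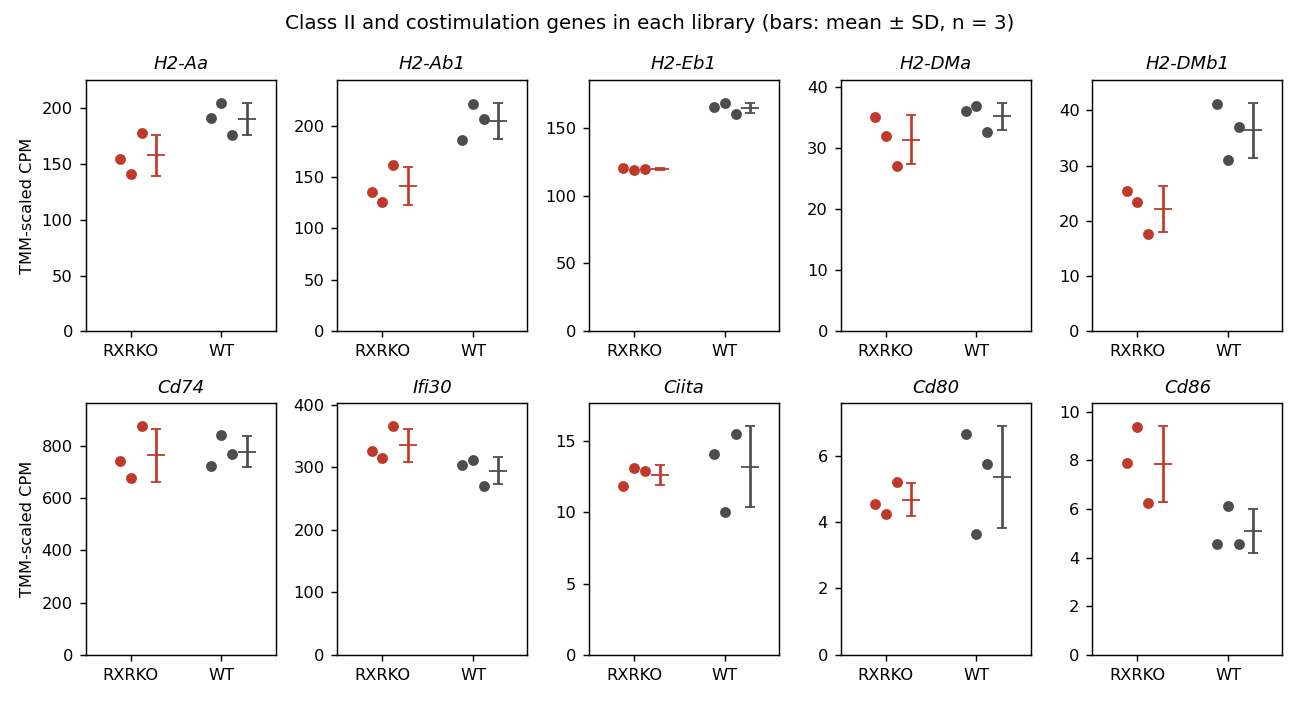
TMM-scaled CPM (counts scaled so that library totals match, linear axis from 0) of the 10 genes in each library, with RXRKO libraries in red on the left of each panel and WT libraries in grey on the right. Points are replicates 1 to 3 from left to right, and bars are mean ± SD (n = 3). The groups are apart in H2-Ab1, H2-Eb1 and H2-DMb1, where RXRKO is lower, and in Ifi30 and Cd86, where RXRKO is higher.

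The libraries held 17250051, 25091019 and 18491943 counted reads in RXRKO replicates 1, 2 and 3, and 9642889, 7880320 and 14957253 in WT replicates 1, 2 and 3, so depth and genotype cannot be told apart by design. Rxrb averaged 9.27 ± 2.09 CPM in RXRKO and 66.7 ± 1.86 CPM in WT (SD, n = 3 each). Rxra averaged 109 ± 4.83 CPM in RXRKO and 104 ± 6.70 CPM in WT, and since the counts cover all its exons they do not check a floxed part. Lyz2, the gene that holds the Cre, averaged 28.4 ± 6.12 CPM in RXRKO and 15258 ± 594 CPM in WT. Of the 10 macrophage markers, 3 rose and 3 fell, beside 9.77% and 9.61% of all genes tested. Those that rose were Cd14 (by 1.08), Itgam (by 0.65) and Csf1r (by 0.39 on the log2 scale). Mrc1 (-0.46) was among those that fell. Adgre1, the gene of the F4/80 antigen, did not pass, at 1896 ± 82.1 CPM in RXRKO and 1923 ± 95.3 CPM in WT. The groups also differed in sex-linked genes. Xist, which is transcribed from the inactive X chromosome, averaged 237 ± 28.9 CPM in RXRKO and had 0 reads in WT, and the Y-linked Ddx3y averaged 51.7 ± 3.23 CPM in RXRKO and 107 ± 5.60 CPM in WT. Every RXRKO library held reads of both genes, at 209 to 267 CPM of Xist and 49.7 to 55.4 CPM of Ddx3y. The labels give no sex. The part of depth and sex in the results below was not tested, apart from the counts thinned to the smallest library.

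Ranked by level per transcript length, Cd74 stood first and Ifi30 next in both groups. On the TPM scale (counts divided by transcript length and scaled to the same total in every library), Cd74 was at 1273 ± 141 in RXRKO and 1208 ± 75.1 in WT, and Ifi30 was at 804 ± 46.6 in RXRKO and 657 ± 17.6 in WT. H2-Aa followed with 329 ± 31.2 TPM in RXRKO and 370 ± 4.04 TPM in WT, then H2-Ab1 with 273 ± 29.6 TPM in RXRKO and 369 ± 31.3 TPM in WT. The TPM ranges of H2-Aa and H2-Ab1 over the libraries overlapped within each group, although each RXRKO library had fewer reads of H2-Ab1 than of H2-Aa. H2-Eb1 came next with 169 ± 2.98 TPM in RXRKO and 216 ± 9.34 TPM in WT. The H2-DM genes lay well under the chains: H2-DMa was at 44.5 ± 6.29 TPM in RXRKO and 46.4 ± 1.18 TPM in WT, and H2-DMb1 was at 37.2 ± 7.40 TPM in RXRKO and 57.0 ± 10.2 TPM in WT. Their ranges overlapped in both groups. The lowest 3 were Ciita, Cd80 and Cd86, all under 9 TPM. In RXRKO, Cd86 was above Ciita and Ciita above Cd80 with no overlap (5.66 to 8.88, 4.65 to 5.26 and 3.22 to 3.78 TPM), and in WT the ranges of the 3 overlapped.

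H2-Ab1 encodes the beta chain of I-A, the class II molecule at the surface of C57BL/6 cells. H2-Ab1 (ENSMUSG00000073421, GRCm38 chromosome 17, 34257689 to 34269419, plus strand) had 136, 126 and 162 CPM in RXRKO replicates 1, 2 and 3, and 186, 221 and 206 CPM in WT replicates 1, 2 and 3. Every RXRKO library was below every WT library. On the log2 scale it changed by -0.54 (SE 0.10; edgeR's quasi-likelihood test, adjusted p = 0.00292), and it passed in 16 of 16 alternative analyses, with values from -0.64 to -0.46.

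H2-Eb1 encodes the beta chain of I-E, whose alpha chain gene is not functional in C57BL/6 mice. H2-Eb1 (ENSMUSG00000060586, chromosome 17, 34305867 to 34316674, plus strand) had 120, 119 and 120 CPM in RXRKO replicates 1, 2 and 3, and 166, 168 and 161 CPM in WT replicates 1, 2 and 3. It was the least variable of the 10 genes, with an SD of 0.737% of the mean in RXRKO and 2.34% in WT, and the groups were far apart. Its log2 fold change was -0.46 (SE 0.07; edgeR's quasi-likelihood test, adjusted p = 8.28e-04), and all 16 alternative analyses passed, from -0.49 to -0.36. The alpha chain pseudogene H2-Ea-ps had 2, 0 and 1 reads in RXRKO replicates 1, 2 and 3, and 0 in each WT library.

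H2-Aa encodes the alpha chain that pairs with H2-Ab1. H2-Aa (ENSMUSG00000036594, chromosome 17, 34282744 to 34287823, minus strand) had 155, 141 and 178 CPM in RXRKO replicates 1, 2 and 3, and 192, 205 and 176 CPM in WT replicates 1, 2 and 3. RXRKO replicate 3 lay just above WT replicate 3, so the groups overlapped. The log2 fold change was -0.27 (SE 0.10, 95% interval -0.48 to -0.06; edgeR's quasi-likelihood test, adjusted p = 0.0685) and did not pass. By the same edgeR test it passed when RXRKO replicate 3 was left out (-0.36, adjusted p = 0.0179) and when WT replicate 3 was (-0.33, adjusted p = 0.0437).

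A ratio of both chains within each library needs no scaling between libraries. The ratio of H2-Ab1 to H2-Aa counts lay between 0.876 and 0.910 in RXRKO and between 0.970 and 1.17 in WT, without overlap. The mean log2 ratio was -0.16 ± 0.03 in RXRKO and 0.10 ± 0.14 in WT (SD, n = 3 each), a difference of -0.26 (exact permutation test, two-sided, p = 0.1, the lowest possible with 3 libraries a group). The reads of the beta chain were thus fewer per read of the alpha chain in each RXRKO library than in any WT library.

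Promoter windows of 250 bases before to 50 bases after the start were read for 6 of the 10 genes (RefSeq, GRCm38.p6). None was on hand for H2-Ab1, Ciita and Cd86, and the promoter of Cd74 is not reported here. The 3 windows below are shown because they belong to class II genes that lie in the same region and hold the X box core GNAACT followed, after 20 to 30 bases, by the Y box core GATTGG. Capitals mark these 2 motifs, and each sequence runs 5′ to 3′ in the direction of its gene.
H2-Aa, chr17:34287774-34288073, minus strand: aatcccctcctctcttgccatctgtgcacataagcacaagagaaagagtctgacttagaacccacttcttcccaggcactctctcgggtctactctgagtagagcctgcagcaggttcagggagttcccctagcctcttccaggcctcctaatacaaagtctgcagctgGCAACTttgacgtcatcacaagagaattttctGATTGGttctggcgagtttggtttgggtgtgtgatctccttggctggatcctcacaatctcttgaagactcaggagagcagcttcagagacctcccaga
H2-Eb1, chr17:34305617-34305916, plus strand: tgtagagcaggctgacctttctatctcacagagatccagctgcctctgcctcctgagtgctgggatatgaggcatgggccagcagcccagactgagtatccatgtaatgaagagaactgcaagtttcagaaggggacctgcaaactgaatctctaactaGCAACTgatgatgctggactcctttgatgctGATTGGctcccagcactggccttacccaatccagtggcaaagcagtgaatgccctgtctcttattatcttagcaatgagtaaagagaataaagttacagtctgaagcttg
H2-DMb1, chr17:34152941-34153240, plus strand: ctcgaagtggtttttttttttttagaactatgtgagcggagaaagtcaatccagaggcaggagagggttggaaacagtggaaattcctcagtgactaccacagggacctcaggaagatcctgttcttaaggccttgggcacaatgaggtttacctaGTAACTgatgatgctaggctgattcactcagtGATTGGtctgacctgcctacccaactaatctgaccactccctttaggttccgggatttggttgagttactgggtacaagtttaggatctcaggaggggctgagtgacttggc
The X core began 81 bases upstream of the start in H2-Aa, 91 in H2-Eb1 and 94 in H2-DMb1, and the spacer between the cores was 26, 25 and 26 bases. This spaced pair, searched on both strands, was present in 67 of 32851 windows of the same length (0.204%). The spacing was chosen after reading these windows, so the share describes how rare the letters are and tests nothing. H2-Eb1 and H2-DMb1, which fell, and H2-Aa, which did not pass, carry the same pair. The windows of H2-DMa, Ifi30 and Cd80 did not hold it. A nuclear receptor half-site, AGGTCA, occurred once in the H2-Eb1 window and once in the H2-DMb1 window, and 16.3% of all windows hold it.

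H2-DM works in endosomes as a heterodimer of an alpha and a beta subunit. H2-DMb1, a gene of the beta subunit (ENSMUSG00000079547, chromosome 17, 34153072 to 34160230, plus strand), had 25.5, 23.4 and 17.5 CPM in RXRKO replicates 1, 2 and 3, and 41.1, 31.0 and 37.0 CPM in WT replicates 1, 2 and 3. All RXRKO libraries were below all WT libraries. Its log2 fold change of -0.72 was the lowest of the 10 genes (SE 0.14; edgeR's quasi-likelihood test, adjusted p = 0.00389), and it passed in all 16 alternative analyses, from -0.83 to -0.58. H2-DMb2, a close copy of the beta subunit gene, was at 1.03 ± 0.184 CPM in RXRKO and 0.877 ± 0.0823 CPM in WT. How reads were divided between the copies is not given in the sources used here, so the level of each is uncertain.

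H2-DMa, the alpha subunit gene (ENSMUSG00000037649, chromosome 17, 34119541 to 34139101, plus strand), had 35.1, 31.9 and 27.1 CPM in RXRKO replicates 1, 2 and 3, and 36.1, 36.8 and 32.6 CPM in WT replicates 1, 2 and 3. RXRKO replicate 1 lay within the WT range and RXRKO replicates 2 and 3 below it. Its log2 fold change was -0.16 (SE 0.11, 95% interval -0.41 to 0.09; edgeR's quasi-likelihood test, adjusted p = 0.356). The ratio of H2-DMa to H2-Ab1 overlapped between the groups, with a mean log2 ratio 0.37 higher in RXRKO than in WT (two-sided exact permutation p = 0.2). H2-DMa shares 360 exon bases with Brd2 on the opposite strand, and whether counting used strand is not given in the sources used here, so its level is uncertain.

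Cd74, the invariant chain (ENSMUSG00000024610, chromosome 18, 60803848 to 60812652), had 742, 675 and 875 CPM in RXRKO replicates 1, 2 and 3, and 724, 843 and 767 CPM in WT replicates 1, 2 and 3. The highest and the lowest of the 6 libraries were both RXRKO. The log2 fold change was -0.03 (SE 0.10; edgeR's quasi-likelihood test, adjusted p = 0.889), with a 95% interval from -0.24 to 0.19. That interval does not reach the point estimates of H2-Ab1, H2-Eb1 or H2-DMb1.

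Ifi30, the lysosomal thiol reductase that opens disulfide bonds of antigens (ENSMUSG00000031838, chromosome 8, 70762774 to 70766663, minus strand), had 326, 315 and 366 CPM in RXRKO replicates 1, 2 and 3, and 303, 312 and 270 CPM in WT replicates 1, 2 and 3. All RXRKO libraries were above all WT libraries, the lowest of them by a few CPM. Its log2 fold change was 0.19 (SE 0.09; edgeR's quasi-likelihood test, adjusted p = 0.162) and did not pass. With length and GC offsets in the model it was 0.30 and passed (the same edgeR test, adjusted p = 0.0111). Ifi30 shares 85 exon bases with 6330537M06Rik on the opposite strand, so its level is uncertain where counting ignored strand.

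**Figure D2:**
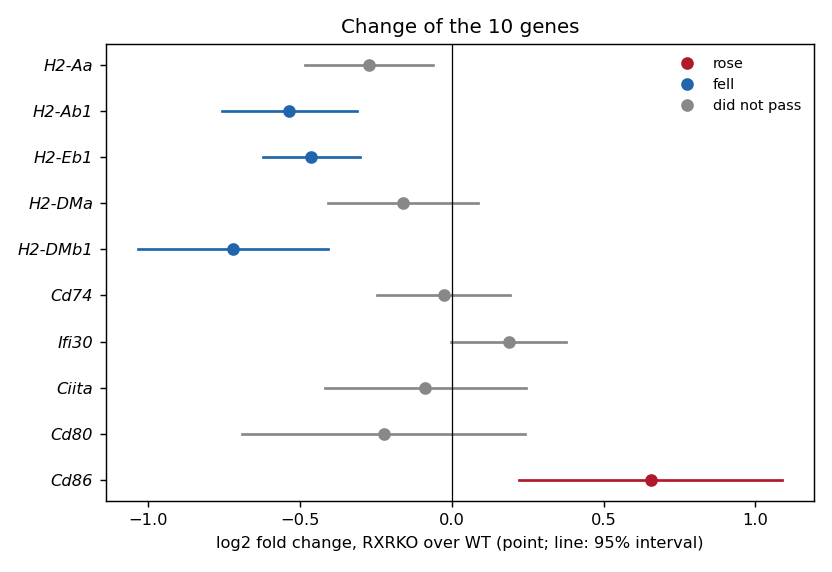
Log2 fold change of the 10 genes, RXRKO over WT, from edgeR's quasi-likelihood fit, with points for the estimate and lines for its 95% interval. Cd86 is the gene that rose (0.65) and H2-Ab1, H2-Eb1 and H2-DMb1 are those that fell (-0.54, -0.46 and -0.72). The interval of H2-Aa lies below 0 although its adjusted p missed the threshold.

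Ciita encodes the transactivator on which class II transcription depends. Ciita (ENSMUSG00000022504, chromosome 16, 10480059 to 10528418) had 11.9, 13.1 and 12.9 CPM in RXRKO replicates 1, 2 and 3, and 14.1, 10.04 and 15.5 CPM in WT replicates 1, 2 and 3. The 3 RXRKO libraries lay inside the WT range. The log2 fold change was -0.09 (SE 0.15; edgeR's quasi-likelihood test, adjusted p = 0.736), and its 95% interval, -0.42 to 0.24, leaves room for a fall nearly as large as that of H2-Eb1. Ciita shares 329 exon bases with Dexi on the opposite strand, so its level is uncertain in the same way as that of H2-DMa.

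Cd86 and Cd80 are the B7 ligands of CD28 and CTLA-4 on T cells. Cd86 (ENSMUSG00000022901, chromosome 16, 36603869 to 36666081, minus strand) had 7.91, 9.37 and 6.25 CPM in RXRKO replicates 1, 2 and 3, and 4.57, 6.13 and 4.57 CPM in WT replicates 1, 2 and 3. RXRKO replicate 3 and WT replicate 2 were nearly level, and the groups did not overlap. Its log2 fold change was 0.65 (SE 0.20, 95% interval 0.22 to 1.09; edgeR's quasi-likelihood test, adjusted p = 0.0370). These levels rest on 136, 236 and 115 reads in RXRKO and on 44, 47 and 70 reads in WT. By the same edgeR test Cd86 no longer passed without RXRKO replicate 1 (0.65, adjusted p = 0.0966), without RXRKO replicate 2 (0.49, adjusted p = 0.161), without WT replicate 1 (0.59, adjusted p = 0.150), without WT replicate 3 (0.57, adjusted p = 0.115) or with all libraries thinned to the smallest (0.51, adjusted p = 0.110).

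Cd80 (ENSMUSG00000075122, chromosome 16, 38455561 to 38496335) had 4.54, 4.25 and 5.22 CPM in RXRKO replicates 1, 2 and 3, and 6.64, 3.65 and 5.75 CPM in WT replicates 1, 2 and 3. The RXRKO libraries lay inside the WT range. The log2 fold change was -0.22 (SE 0.21, 95% interval -0.69 to 0.24; edgeR's quasi-likelihood test, adjusted p = 0.510), on 28 to 88 reads a library in WT. The ratio of Cd86 to Cd80 reads lay between 1.20 and 2.20 in RXRKO and between 0.690 and 1.67 in WT, and the mean log2 ratio differed by 0.77 (two-sided exact permutation p = 0.2). The ratio of these B7 ligands therefore overlapped between the genotypes.

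With 3 libraries a group, each gene has a highest, a middle and a lowest library, so most libraries are at an end. Whether any library stood at an end more often than others was not tested. RXRKO replicate 3 was the highest of its group in 5 of the 10 genes and the lowest in 3, and RXRKO replicate 2 was the lowest in 6. In WT, replicate 2 was the highest in 7 genes and the lowest in the other 3, so it was at an end in all 10. The 10 genes together took between 0.146% and 0.176% of the reads in RXRKO and between 0.167% and 0.179% in WT.

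**Figure D3:**
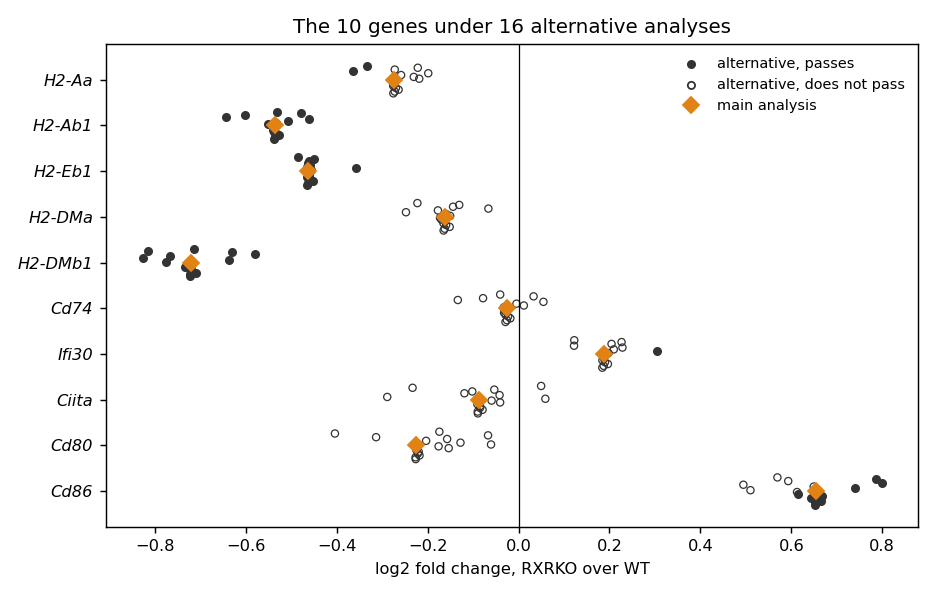
Log2 fold change (RXRKO over WT) of the 10 genes in the main analysis (diamonds) and in each of 16 alternatives (circles, filled where the adjusted p was under 0.05). H2-Ab1, H2-Eb1 and H2-DMb1 are filled throughout, Cd86 in 10 of 16, and Cd74 and Ciita lie on both sides of 0.

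The 5 H2 genes lie on chromosome 17 near Rxrb, one of the modified genes, and the 5 other genes on chromosomes 8, 16 and 18. On chromosome 17, 3 of 5 fell and all 5 log2 fold changes were negative. On the other chromosomes 0 fell, 1 of 5 rose and 3 of 5 log2 fold changes were negative. Over all genes tested, 9.61% fell and 9.77% rose. With 5 genes on each side, chosen with earlier results known, the difference between the 2 sets was not tested. From the end of Rxrb, H2-DMa was 81.1 kb away, H2-DMb1 115 kb, H2-Ab1 219 kb, H2-Aa 244 kb and H2-Eb1 267 kb. In that order their log2 fold changes were -0.16, -0.72, -0.54, -0.27 and -0.46. The changes of the 3 genes that fell were smaller at greater distance, while the nearest gene, H2-DMa, and H2-Aa did not pass, and a relation to distance was not tested. Within 0.5 Mb of Rxrb, 39 genes were tested, of which 9 fell and 1 rose (25.6% called). Of all genes tested, 19.4% were called, 9.61% lower and 9.77% higher in RXRKO. Without the 5 H2 genes, 34 were left, of which 6 fell and 1 rose (20.6% called). Those 6 were Angptl4, Rps28, Kifc1, Pfdn6, Rps18 and Col11a2. The gene that rose, Adamts10, passed in 8 of 16 alternatives, and the count of genes that rose was 0 without RXRKO replicate 1 or 2 or WT replicate 1 or 2, and 2 without WT replicate 3. Angptl4, a secreted inhibitor of lipoprotein lipase, changed most (1.88 CPM in RXRKO and 56.4 CPM in WT, log2 fold change -4.89), and Rps28, a ribosomal protein gene, had a log2 fold change of -0.56. Just beyond 0.5 Mb, on the side of the H2 genes, Notch4, Pbx2, Rnf5, Ppt2, Prrt1 and Fkbpl fell. Their log2 fold changes were -1.66, -0.51, -0.60, -0.67, -2.42 and -0.55, with midpoints 0.54 to 0.61 Mb from that of Rxrb. Gpsm3, Ager, Agpat1, Egfl8 and Atf6b, which lie among or next to them, did not pass. These genes were named after their values were seen. Within 10 Mb, 48 of 295 tested genes fell and 25 rose (24.7% called). Every RXRKO library carries the modified Rxrb allele, so the loss of the receptors and the chromosome segment around that allele cannot be told apart in these groups.

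**Figure D4:**
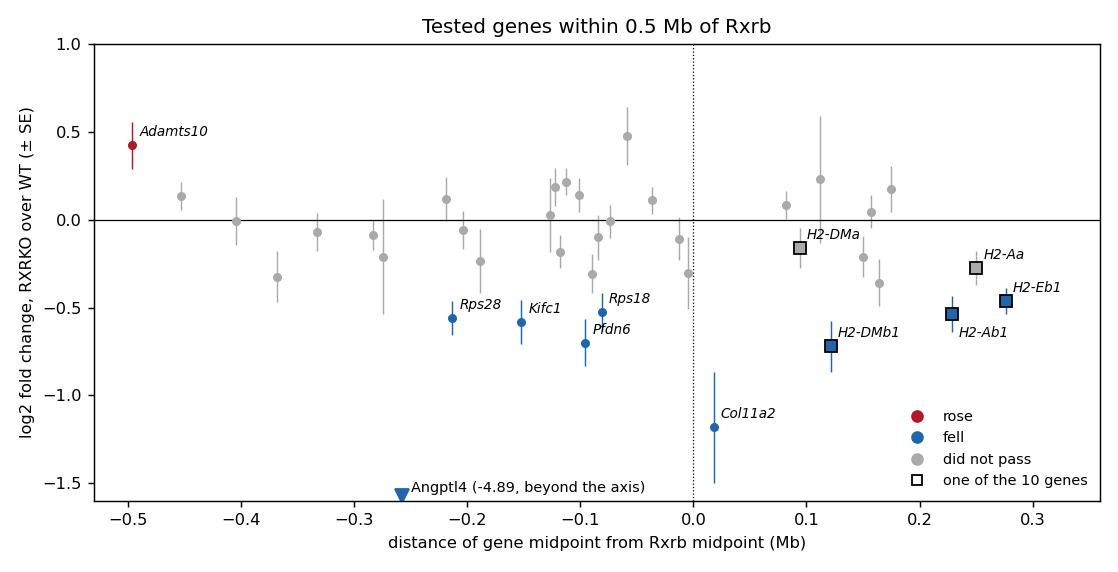
Log2 fold change (RXRKO over WT, lines ± SE) of the 39 tested genes within 0.5 Mb of Rxrb, against the distance of the gene midpoint from the Rxrb midpoint in Mb. Squares are the H2 genes of the set described here, and H2-DMb2, which is not in that set, is a circle. Blue marks genes that fell, red the gene that rose and grey those that did not pass. Genes that fell stand on both sides of Rxrb among genes that did not pass.

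Of 12 other genes of the class II region, 7 were tested and 0 passed by edgeR, by DESeq2 or by limma-voom. Their median log2 fold change was 0.08, and edgeR called 19.4% of all genes tested. By edgeR, 2 of the 7 (Psmb8 and Tapbp, named after their values were seen) had an unadjusted p under 0.05, and 1 fell without RXRKO replicate 3, without WT replicate 3 and with no filter on low counts, while 1 rose with thinned counts. Tap1 and Tap2, the peptide transporter of class I presentation, were at 86.6 ± 6.30 and 70.7 ± 11.2 CPM in RXRKO, and at 83.8 ± 7.71 and 62.8 ± 9.81 CPM in WT. Psmb8, an immunoproteasome subunit that lies between the H2-DM genes and H2-Ab1, was at 110 ± 12.8 CPM in RXRKO and 142 ± 28.6 CPM in WT. H2-Oa and H2-Ob, which encode the B cell inhibitor of H2-DM, and H2-Eb2 and H2-Ea-ps had at most 5 reads in any library.

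Among 14 transcription factors that act on class II genes, 3 rose, 1 fell and 10 did not pass. Their median log2 fold change was 0.07, and 19.4% of all genes tested passed. Irf8, a factor of the macrophage and dendritic cell lineages, was at 283 ± 15.3 CPM in RXRKO and 183 ± 4.94 CPM in WT (log2 fold change 0.63, SE 0.08; edgeR's quasi-likelihood test, adjusted p = 1.22e-04). Its relative Irf4 was at 5.64 ± 0.794 CPM in RXRKO and 2.86 ± 0.797 CPM in WT (1.02, SE 0.23; edgeR, adjusted p = 0.00740), and missed the threshold without WT replicate 1 (0.93, adjusted p = 0.0504) and with thinned counts (0.78, adjusted p = 0.0849). Irf1, an inducer of Ciita, was at 65.9 ± 1.44 CPM in RXRKO and 51.7 ± 0.676 CPM in WT (0.35, SE 0.08; edgeR, adjusted p = 0.00942), and missed it without RXRKO replicate 1 (0.35, adjusted p = 0.0552). Rfxap, a subunit of the RFX complex at the X box, was at 23.1 ± 2.07 CPM in RXRKO and 29.5 ± 1.24 CPM in WT (-0.35, SE 0.11; edgeR, adjusted p = 0.0365). It passed in 7 of 16 alternatives only, and not without RXRKO replicate 1 or 3 or any one WT library (adjusted p from 0.0578 to 0.179). The other RFX subunits did not pass: Rfx5 had a log2 fold change of 0.29 and Rfxank of -0.02. The NF-Y subunits and Creb1 did not pass either.

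In the interferon gamma receptor pathway, 1 of 10 genes rose (Irf1) and 1 fell, beside 9.77% and 9.61% of all genes tested. The median log2 fold change was -0.11. The one that fell was Socs3, a feedback inhibitor of cytokine receptors, at 1.34 ± 0.282 CPM in RXRKO and 3.47 ± 0.234 CPM in WT (-1.35, SE 0.26; edgeR's quasi-likelihood test, adjusted p = 0.00299). The receptor chains Ifngr1 and Ifngr2 did not pass, with log2 fold changes of -0.16 and 0.20.

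Of 20 genes of class II processing and trafficking, 2 rose, 3 fell and 15 did not pass. Their median log2 fold change was 0.10, and 19.4% of all genes tested passed. March1 encodes a ubiquitin ligase that sends class II and CD86 protein from the surface to degradation. March1 was at 50.8 ± 6.86 CPM in RXRKO and 36.1 ± 3.13 CPM in WT (0.49, SE 0.11; edgeR's quasi-likelihood test, adjusted p = 0.0102), and missed the threshold when RXRKO replicate 2 was left out (0.39, adjusted p = 0.0519) and when WT replicate 1 was (0.49, adjusted p = 0.0505). The protease gene Ctsb rose by 0.42, and the protease genes Lgmn and Ctsh and the tetraspanin gene Cd82 fell by 0.41, 0.38 and 0.54 on the log2 scale. Lgmn, an endopeptidase that cleaves the invariant chain and antigens, was at 1326 ± 82.4 CPM in RXRKO and 1762 ± 138 CPM in WT. Ctss, the cathepsin that makes CLIP, did not pass (0.01), at 4901 ± 105 CPM in RXRKO and 4864 ± 446 CPM in WT.

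Of 19 other costimulatory and coinhibitory ligands, 15 were tested, and 3 rose, 2 fell and 10 did not pass. Their median log2 fold change was 0.14, and 19.4% of all genes tested passed. Cd274, which encodes PD-L1, was at 34.8 ± 1.96 CPM in RXRKO and 23.4 ± 1.26 CPM in WT (0.57, SE 0.10; edgeR's quasi-likelihood test, adjusted p = 0.00172). Slamf7 rose by 0.46 on the log2 scale. Without RXRKO replicate 3, 5 of these ligands rose. Cd40, the receptor of CD40 ligand, was at 13.8 ± 1.80 CPM in RXRKO and 10.1 ± 0.728 CPM in WT (0.43; edgeR, adjusted p = 0.0487), and it passed in 6 of 16 alternatives only, not by DESeq2 (adjusted p = 0.0648) or limma-voom (adjusted p = 0.0745), and in no fit that left out RXRKO replicate 1 or 2 or any WT library (adjusted p from 0.0539 to 0.220). Cd276, which encodes B7-H3, fell to 15.4 ± 2.44 CPM in RXRKO, against 26.7 ± 1.43 CPM in WT (-0.80). Icam1, the ligand of the integrin LFA-1, fell to 80.0 ± 4.92 CPM in RXRKO, against 134 ± 15.2 CPM in WT (-0.75).

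**Figure D5:**
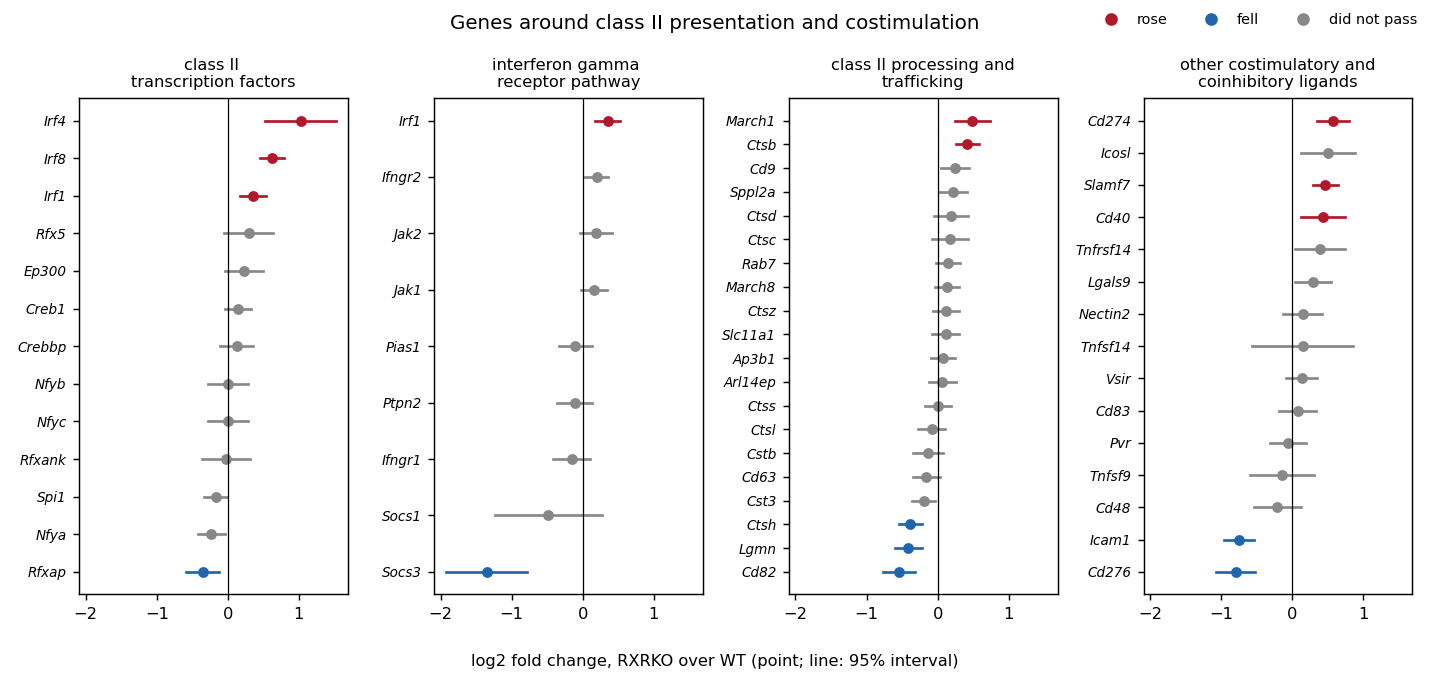
Log2 fold change (RXRKO over WT, lines 95% intervals) of tested genes in 4 lists around class II presentation and costimulation. Red marks genes that rose, blue those that fell and grey those that did not pass. Each panel holds genes on both sides of 0, and most did not pass.

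Most markers of dendritic cells, B cells and T cells had too few reads to be tested, while all 12 neutrophil markers were tested. Of 12 dendritic cell markers, 2 were tested: Itgax rose (245 ± 7.13 CPM in RXRKO and 170 ± 4.98 CPM in WT, 0.52) and Batf3 did not pass. The 10 others, Zbtb46, Flt3, Ccr7, Xcr1 and Clec9a among them, had at most 17 reads in an RXRKO library and 12 in a WT library, and the sum of the list, nearly all of it Itgax, lay between 256 and 268 CPM in RXRKO and between 178 and 191 CPM in WT. Of 12 B cell markers, 10 had at most 10 reads in an RXRKO library and 5 in a WT library. Cd79b fell (1.70 ± 0.246 CPM in RXRKO and 5.25 ± 0.599 CPM in WT, -1.65), Cd22 did not pass, and the sum was 16.2 to 20.4 CPM in RXRKO and 17.2 to 19.1 CPM in WT. Of 10 T cell markers, 3 were tested and Cd28 rose (81.2 ± 5.00 CPM in RXRKO and 53.5 ± 6.995 CPM in WT, 0.60), while Cd3d and Cd8a were at 0 in every WT library, Trbc2 at 0 in all 6 libraries, and no untested marker had more than 15 reads. The sum of these markers, most of it Cd28, was 87.4 to 97.9 CPM in RXRKO and 57.0 to 73.7 CPM in WT. Cd4, next in level, did not pass (10.3 ± 0.848 CPM in RXRKO and 12.5 ± 2.22 CPM in WT, -0.30). Of 12 neutrophil and granulocyte precursor markers, 5 fell and 0 rose (3 fell without WT replicate 1), beside 9.61% and 9.77% of tested genes. Mpo, Elane and Prtn3, granule genes of precursors, were among them (-0.88, -1.10 and -0.83), and the sum was 1003 to 1115 CPM in RXRKO and 1102 to 1253 CPM in WT. The part of these markers in the levels of the 10 genes was not tested.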

How the data were processed

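The authors deposited raw counts per Ensembl gene for 45193 genes, whole numbers with no normalization, and a table of log2 values that they normalized. The submitters' processing notes name TopHat2 2.0.7 and DESeq, with mm10 (GRCm38) as the build. For the counting program, its annotation and its strand setting, the sources used here give nothing. Set against the counts, each deposited log2 column equals log2(constant × count) with 1 constant per library, and a count of 1 is listed as 0 in 3522, 2422 and 2852 genes of RXRKO replicates 1, 2 and 3.

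The counts went into edgeR 4.0.16 under R 4.3.3, with TMM factors, filterByExpr (minimum count 10, minimum total 15), the robust quasi-likelihood F test with genotype alone, and Benjamini-Hochberg adjustment over 12011 genes (threshold 0.05). SEs were derived from the size of the log2 fold change and F, so they restate that test. Levels are TMM-scaled CPM, and TPM was computed from the counts with the longest principal transcript (GENCODE M21). Ratios of counts had 0.5 added to each count. Symbols were matched for 45106 identifiers. The analysis was tested on simulated counts with known changes.

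The 10 genes and the other lists were chosen with earlier results of these data known. Genes were named by a rule: the 10, Rxra, Rxrb, Lyz2, up to 3 that rose and 3 that fell per list by adjusted p, the most abundant marker, and up to 5 each way near Rxrb. Others were named for their role or after their values were seen, and some listed genes that were counted are not reported here by name. The 16 alternatives were RLE and upper-quartile factors, no filter, a CPM minimum of 1 reached by 3 or more libraries, limma-voom (limma 3.58.1), DESeq2 1.42.0, limma on the authors' log2 values with a pseudocount of 1, the replicate number as a block, counts thinned to the smallest library, offsets for length and GC content, and leaving out each library.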

Additional observations from a re-analysis of the deposited data

How the results depend on the processing

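H2-Ab1, H2-Eb1 and H2-DMb1 passed in the same direction in all 16 alternatives, and between 3 and 4 of the 10 genes fell when each library was left out in turn. The number of the 10 genes that rose was 1 in the main analysis, 0 with thinned counts and 2 with length and GC offsets, and 0 to 1 with each library left out. The log2 fold change of Cd74 changed sign with length and GC offsets (0.012) and, with each library left out, lay between -0.134 (without RXRKO replicate 3) and 0.055 (without RXRKO replicate 2). That of Ciita changed sign with thinned counts (0.059) and lay between -0.233 (without WT replicate 2) and 0.050 (without WT replicate 3) with each library left out, and that of Rxra was -0.051 with length and GC offsets. These 3 genes passed in none of the 16 alternatives, and the cause was not tested. The count of all genes called, 2327, lay between 1286 (without WT replicate 1) and 2607 with each library left out, and was 1383 without RXRKO replicate 1. The differences in log2 ratio kept their sign, from 0.53 to 1.16 for Cd86 to Cd80, from -0.33 to -0.20 for H2-Ab1 to H2-Aa and from 0.26 to 0.57 for H2-DMa to H2-Ab1. Depth limits Cd80 and Cd86 most, with as few as 28 and 44 reads in a library.

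With the replicate number as a block, 0 of the 10 genes rose, since Cd86 missed the threshold (0.61; edgeR's quasi-likelihood test, adjusted p = 0.0679), 3 fell, and 1375 genes were called in all. Among the other named genes Irf1, Rfxap, Cd40 and Adamts10 missed the threshold with the block, and 1 of the 10 macrophage markers fell in place of 3. Deviations of same-numbered libraries correlated at 0.05, -0.28 and -0.26 across genes, and no library correlated best with its own number. These correlations, from 3 libraries a group, do not show a pairing by number, and a batch shared by number was not tested.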
